A study of Mus musculus with 35 samples.

Results

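The 9 genes described here form the switch that opens or holds the G1 phase of the cell cycle. They were the D-type cyclins Ccnd2 and Ccnd3, the cyclin-dependent kinases Cdk4 and Cdk6, the Cip/Kip inhibitors Cdkn1a (p21) and Cdkn1b (p27), and the INK4 inhibitors Cdkn2a, Cdkn2c (p18) and Cdkn2d (p19INK4d). They were taken by name, by matching the gene identifiers of the count tables to mouse symbols. They are 9 of the 48709 genes in the tables, and all 9 passed the filter on low counts. RNA was sequenced from cytotoxic CD8+ T cells (CTLs) of OT-I mice, whose T cells carry a transgenic receptor for an ovalbumin peptide. The CTLs came from splenocytes primed with antibodies to CD3 and CD28 and expanded in IL-2, and all 7 groups share that history. One group of 5 libraries was taken at 0 h, before the change of medium. For the 6 other groups, also of 5 libraries, the cells spent 24 h in medium set to pH 7.4, pH 7 or pH 6.6 with hydrochloric acid, and at each pH the medium held either no IL-2 or 200 IU/mL of it. The model is therefore a population grown in culture with no tumour or antigen present, and dead cells were removed before RNA was prepared.

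D-type cyclins are made when a T cell receives growth signals such as IL-2, and they bind and switch on CDK4 and CDK6. The active kinases phosphorylate the retinoblastoma protein, which then lets go of the E2F factors that drive the genes of DNA synthesis. INK4 proteins bind CDK4 and CDK6 and keep the D cyclins off them, while p21 and p27 bind complexes of cyclins with kinases and block cyclin E with CDK2 above all. In resting T cells p27 is abundant, and IL-2 is known for driving its loss, partly through the ubiquitin ligase subunit SKP2 and partly through FOXO factors that leave its gene.

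The total count on genes was 16721319 to 34033340 per library, and the 9 genes had at least 52 reads in every library. The 7 CD8 T cell markers were detected in every group, with Cd8a, Cd8b1 and Cd3e among them, and their summed level ran from 2640.0 to 3058 CPM (read counts relative to the TMM-scaled size of each library) at pH 6.6 without IL-2 to 9981 to 13180.0 CPM at 0 h. The sum includes the cytotoxic genes Gzmb and Prf1. With IL-2, their log2 fold changes at pH 6.6 against pH 7.4 were -3.265 and -2.01. The other markers ran from -0.02 (Cd3g) to 0.67 (Trac) in that comparison. Without IL-2, Gzmb and Prf1 had -0.46 and -0.71 at pH 6.6 against pH 7.4. There Cd8a (-0.41), Cd8b1 (-0.73) and Cd3g (-0.57) were lower too, Cd3e was higher (0.49) and Trac had -0.02. Cd4 did not exceed 2.48 CPM in any library, the 4 erythroid markers stayed under 1 CPM in every library, and so did 3 of 4 B cell, 3 of 5 myeloid and 1 of 2 NK cell markers. The summed myeloid level was 5.11 to 10.8 CPM at pH 7.4 with IL-2 and 16.5 to 30.9 CPM at pH 6.6 with IL-2, and without IL-2 it was 10.3 to 19.3 and 17.8 to 32.98 CPM. The summed NK cell level was 83.4 to 94.96 CPM at 0 h. With IL-2 it was 42.98 to 45.8 CPM at pH 7.4 and 19.35 to 33.2 CPM at pH 6.6. Without IL-2 it was 20.65 to 40.8 CPM at pH 7.4 and 8.27 to 12.1 CPM at pH 6.6. The part of the myeloid and NK cell levels in the results below was not tested. Values for genes of dividing cells are given further on.

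In brief, IL-2 at pH 7.4 held the D cyclins and both kinases 2.85-fold (Ccnd2) to 4.70-fold (Ccnd3) above their level without the cytokine and Cdkn1b 6.83-fold below it. The inhibitors Cdkn1a, Cdkn2a, Cdkn2c and Cdkn2d were also higher with IL-2 there, from 1.56-fold (Cdkn2d) to 10.5-fold (Cdkn2a). At pH 6.6 the IL-2 difference was smaller for Ccnd3, Cdk4, Cdk6 and all the inhibitors, as the interaction tests below show. For Ccnd2 it was not shown to differ. With IL-2 present, all 9 genes passed the threshold in the comparison of pH 6.6 with pH 7.4, where 76.3% of the 13819 genes tested did, so the share that passed is not particular to these genes. Of the 9, 2 (Cdkn1a and Cdkn1b) were higher (background 35.4%) and 7 lower (background 40.9%) at pH 6.6, with a median log2 fold change of -0.71 against -0.07 for all genes tested. The call of Cdkn2d, 1 of the 7, held in only 1 of 12 alternatives to the fit. Throughout, fold changes come from 1 edgeR quasi-likelihood fit to the 35 libraries with the replicate number as a block, adjusted p is the Benjamini-Hochberg value over all genes tested, and the threshold is 0.05. In RNA from a whole culture, fewer cells of a type and less RNA per cell cannot be told apart. Comparisons that use the same pH 7.4 or 0 h libraries are not independent of each other.

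**Figure D1:**
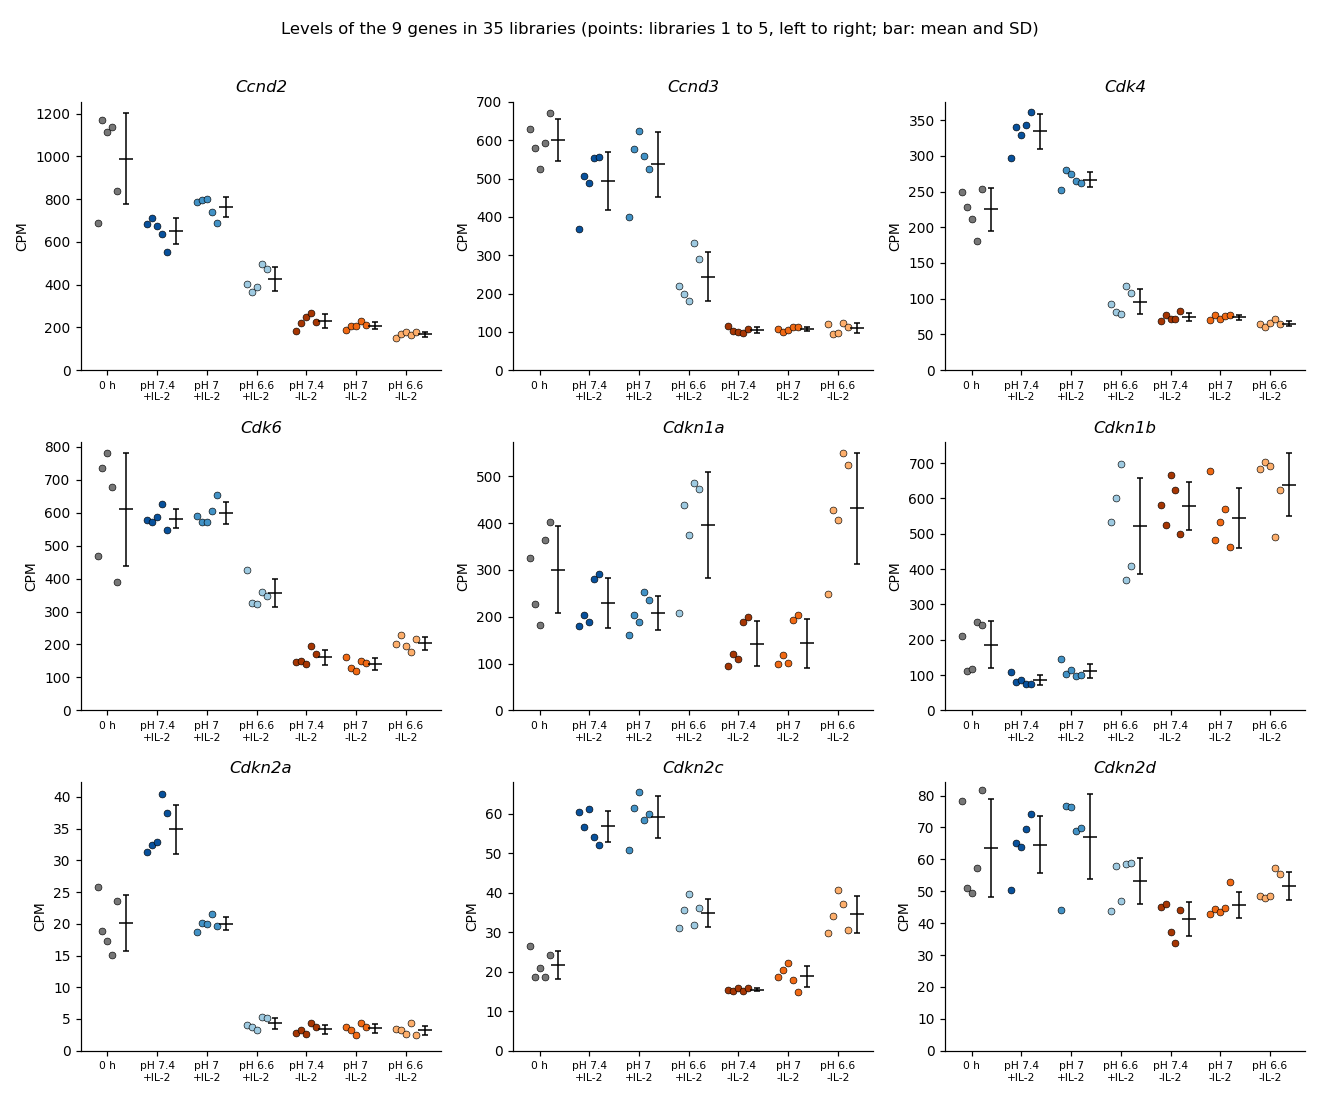
Level of each gene in CPM (vertical axis, from 0) in the 7 groups (horizontal axis), with 1 point per library and a bar for the mean and SD of 5 libraries. With IL-2, Ccnd2, Ccnd3, Cdk4 and Cdk6 step down from pH 7.4 and pH 7 to pH 6.6. Their means are lower still without IL-2, where Cdk4 at pH 7.4 overlaps its pH 6.6 group with IL-2. Cdkn1b is low with IL-2 at pH 7.4 and pH 7, and its pH 6.6 group with IL-2 overlaps the groups without IL-2. Cdkn1a has its highest means in both pH 6.6 groups.

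Ccnd2, the D cyclin that IL-2 and antigen induce in T cells (chr6:127125162-127152193, minus strand, GRCm38), was highest at 0 h. The 5 libraries held 689.9, 1169, 1114, 1138 and 837 CPM at 0 h, 682, 711, 672, 635 and 554 CPM at pH 7.4 with IL-2 and 404, 365, 387, 494 and 474 CPM at pH 6.6 with IL-2. Without IL-2 they held 184, 222, 249, 267 and 225 CPM at pH 7.4 and 152, 170.3, 177, 164 and 179 CPM at pH 6.6. Every pH 6.6 library was below every pH 7.4 library, both with and without IL-2. Ccnd2 fell at pH 6.6 with IL-2 by 1.53-fold (log2 fold change -0.62, SE 0.10, edgeR adjusted p = 2.35e-06) and fell without it by 1.36-fold (log2 fold change -0.44, SE 0.10, edgeR adjusted p = 3.71e-04). The effect of pH 6.6 on Ccnd2 was not shown to differ between the arms (interaction -0.18 ± 0.14, edgeR adjusted p = 0.285), the only member of the 9 for which that test missed the threshold. IL-2 raised Ccnd2 at both ends of the pH range, by 2.85-fold at pH 7.4 (log2 fold change 1.51, SE 0.10, edgeR adjusted p = 7.50e-15) and by 2.53-fold at pH 6.6 (log2 fold change 1.34, SE 0.10, edgeR adjusted p = 1.92e-11).

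Ccnd3, the D cyclin that developing and activated lymphocytes depend on (chr17:47505051-47599691, plus strand), had 368, 506, 487, 553 and 556 CPM at pH 7.4 with IL-2 and 220.2, 198, 179, 332 and 290.2 CPM at pH 6.6 with IL-2. Without IL-2 all 15 libraries lay between 95.01 and 124 CPM, whatever the pH. The groups with IL-2 at pH 6.6 and at pH 7.4 did not overlap, and the lowest pH 6.6 library with IL-2 was above every library without it. Ccnd3 was 2.04-fold lower at pH 6.6 with IL-2 (log2 fold change -1.03, SE 0.12, edgeR adjusted p = 2.48e-09). Without IL-2 its log2 fold change was 0.07 ± 0.12 (edgeR adjusted p = 0.605), and the difference between the arms passed the threshold (interaction -1.10 ± 0.17, edgeR adjusted p = 8.48e-07). The IL-2 difference in Ccnd3 was 4.70-fold at pH 7.4 and 2.19-fold at pH 6.6 (log2 fold change 1.13, SE 0.12, edgeR adjusted p = 1.32e-08).

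Cdk4 (chr10:127063534-127067920, plus strand) encodes the kinase partner of the D cyclins and is a known target of c-Myc. Its promoter is shown because it stood apart from the other members in the motif searched for c-Myc. The 250 bases before the start of the RefSeq transcript, at chr10:127063285-127063534 on the plus strand of GRCm38.p6, are printed 5′ to 3′ with each E-box CACGTG, the palindrome that c-Myc with MAX can bind, in capitals.
Cdk4 promoter: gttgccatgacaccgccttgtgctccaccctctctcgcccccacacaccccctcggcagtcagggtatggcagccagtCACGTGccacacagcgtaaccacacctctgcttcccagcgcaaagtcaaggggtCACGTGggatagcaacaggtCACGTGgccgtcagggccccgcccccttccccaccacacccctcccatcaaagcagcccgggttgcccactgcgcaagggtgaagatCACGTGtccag
The window held 4 copies, at 172, 118, 98 and 11 bases before the start. Of 32851 RefSeq promoter windows of 300 bases, 7.15% held at least 1 copy and 8 windows (0.0244%) held 4 or more. A match in sequence is a description and does not show binding. Promoter windows were found for 8 of the 9 members, in 12 windows, with none for Ccnd2. Cdk6 had 1 E-box, 220 bases before the start, and 1 of the Cdkn2c windows had 1, at 34 bases after it. On either strand, the E2F motif searched (TTTCCCGC or TTTGGCGC) occurred in a window of Cdkn2a, 99 bases before the start, and in 1.56% of all windows. The forkhead motif TGTTTAC occurred in a window of Ccnd3 and in 3.65% of all windows, and the STAT motif TTCNNNGAA in no member's window and in 8.30% of all windows. None of these motifs overlapped another in the members' windows.

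Cdk4 had 296, 340.3, 329.5, 344 and 361 CPM at pH 7.4 with IL-2, 253, 280.3, 274, 264 and 262 CPM at pH 7 and 93.1, 81.2, 77.98, 118 and 109 CPM at pH 6.6. At 0 h it had 249.7, 229, 212, 181 and 253 CPM, and without IL-2 it stayed between 60.1 and 82.3 CPM at the 3 pH values. The 3 IL-2 groups did not overlap each other, so Cdk4 is 1 of 2 members, with Cdkn2a, in which a step of pH 7 was also resolved. Cdk4 fell 1.25-fold from pH 7.4 to pH 7 (log2 fold change -0.32, SE 0.09, edgeR adjusted p = 0.00844) and 3.49-fold from pH 7.4 to pH 6.6 (log2 fold change -1.80, SE 0.09, edgeR adjusted p = 3.36e-18). Without IL-2 the difference was -0.19 ± 0.09 (edgeR adjusted p = 0.0567), lower in 5 of 5 replicates, and it passed the threshold under 5 of 12 alternatives, among them the fits without replicate 1 (-0.24, edgeR adjusted p = 0.0408) and without replicate 4 (-0.23, edgeR adjusted p = 0.0153). The interaction was -1.61 ± 0.12 (edgeR adjusted p = 4.37e-13). IL-2 raised Cdk4 4.48-fold at pH 7.4 (log2 fold change 2.16, SE 0.09, edgeR adjusted p = 1.48e-20) and 1.46-fold at pH 6.6 (log2 fold change 0.55, SE 0.09, edgeR adjusted p = 1.69e-05). Of the exon bases of Cdk4, 19.7% lie in a gene on the opposite strand, mainly Tspan31, and the strand setting of the counting is not given in the sources used here.

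Cdk6 (chr5:3341485-3531008, plus strand), the second kinase that the D cyclins activate and a prominent one in T cells, had 577, 572, 588, 625 and 548 CPM at pH 7.4 with IL-2 and 426, 326, 322, 359 and 347 CPM at pH 6.6 with IL-2. These groups did not overlap, and Cdk6 fell 1.63-fold (log2 fold change -0.71, SE 0.13, edgeR adjusted p = 1.09e-05). Without IL-2 it had 147, 149, 142, 196 and 169.9 CPM at pH 7.4 and 200.3, 229, 195, 177 and 216 CPM at pH 6.6. There the groups overlapped and the test gave a rise of 1.27-fold (log2 fold change 0.34, SE 0.13, edgeR adjusted p = 0.0205), higher in 4 of 5 replicates. That call was lost without replicate 1 (0.29, edgeR adjusted p = 0.0727), without replicate 2 (0.24, edgeR adjusted p = 0.161) and with total count scaling (0.19, edgeR adjusted p = 0.212). The effects of pH 6.6 differed between the arms (interaction -1.05 ± 0.18, edgeR adjusted p = 7.55e-06). The IL-2 difference was 3.62-fold at pH 7.4 (log2 fold change 1.86, SE 0.13, edgeR adjusted p = 2.13e-14) and 1.75-fold at pH 6.6 (log2 fold change 0.81, SE 0.13, edgeR adjusted p = 1.82e-05).

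**Figure D2:**
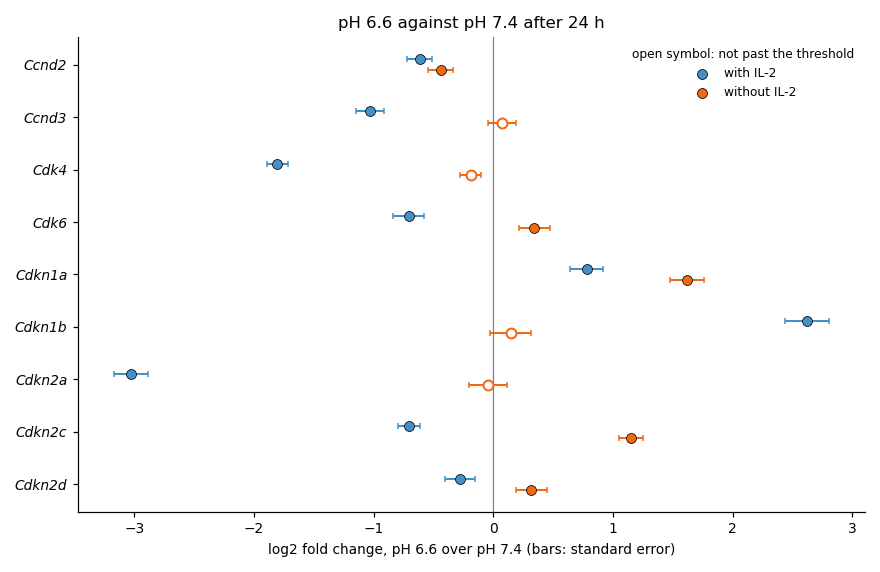
Log2 fold change of pH 6.6 over pH 7.4 (horizontal axis) for each gene (vertical axis), with IL-2 in blue and without IL-2 in orange, bars for the standard error, and open symbols where the adjusted p missed 0.05. Cdkn1b lies at 2.62 with IL-2 and 0.14 without it, Cdkn2a at -3.03 and -0.04, and Cdkn2c at -0.71 and 1.15.

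Cdkn1b (chr6:134920401-134925513, plus strand) encodes p27 and rose most of the 9 at pH 6.6 with IL-2. With IL-2 its libraries held 109, 79.3, 87.3, 75.3 and 75.2 CPM at pH 7.4, 144, 102, 114, 97.5 and 99.2 CPM at pH 7 and 534, 601, 697, 369 and 409.9 CPM at pH 6.6. Without IL-2 they held 580.0, 525, 665, 622 and 498 CPM at pH 7.4 and 683, 704, 692, 489.7 and 623 CPM at pH 6.6. The lowest pH 6.6 library with IL-2 lay above the highest library at pH 7 or pH 7.4 with IL-2, and the group overlapped the range of the groups without IL-2. Cdkn1b rose 6.16-fold at pH 6.6 with IL-2 (log2 fold change 2.62, SE 0.19, edgeR adjusted p = 7.62e-14). Without IL-2 its log2 fold change was 0.14 ± 0.18 (edgeR adjusted p = 0.48), and the interaction was 2.48 ± 0.25 (edgeR adjusted p = 4.89e-10). At pH 7.4 IL-2 lowered it 6.83-fold (log2 fold change -2.77, SE 0.19, edgeR adjusted p = 1.48e-14), the only member lowered there, against a background of 41.1% of genes lower. At pH 6.6 the IL-2 difference was -0.29 ± 0.18 (edgeR adjusted p = 0.235), and it passed the threshold only when the compared groups were fitted alone (-0.28, edgeR adjusted p = 0.00374). Set directly against pH 7.4 without IL-2, cells at pH 6.6 with IL-2 differed by -0.15 ± 0.18 (edgeR adjusted p = 0.462), a difference the spread between libraries cannot tell from 0.

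Cdkn1a (chr17:29090976-29100727, plus strand), which p53 and stress signals induce, differed from Cdkn1b in that it rose at pH 6.6 in both arms. It had 180.4, 203, 189, 281 and 291 CPM at pH 7.4 and 207, 438, 375, 486 and 473 CPM at pH 6.6 with IL-2, where 1 low library at pH 6.6 made the groups overlap. Without IL-2 it had 94.8, 120.0, 110.3, 189.6 and 199 CPM at pH 7.4 and 249, 428, 407, 550.1 and 524 CPM at pH 6.6, with no overlap. The libraries numbered 4 and 5 were the highest in 7 of 7 groups, a difference between replicates that the block takes out. Cdkn1a rose 1.72-fold with IL-2 (log2 fold change 0.78, SE 0.14, edgeR adjusted p = 7.54e-06) and 3.07-fold without it (log2 fold change 1.62, SE 0.14, edgeR adjusted p = 1.60e-11), in 5 of 5 replicates each. The rise was smaller with IL-2 (interaction -0.84 ± 0.20, edgeR adjusted p = 3.85e-04), but without the replicate block that difference missed the threshold (-0.81, edgeR adjusted p = 0.0551). Its level at pH 6.6 did not separate by IL-2 (log2 difference -0.12 ± 0.14, edgeR adjusted p = 0.56), whereas at pH 7.4 it was 1.64-fold higher with IL-2 (log2 fold change 0.71, SE 0.14, edgeR adjusted p = 2.55e-05).

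Cdkn2a (chr4:89274471-89294653, minus strand) encodes p16INK4a and, from another first exon and reading frame, p19ARF, which restrains MDM2, and a count per gene cannot separate them. It was the least abundant member, with 52 to 977 reads per library. The libraries held 31.3, 32.4, 32.9, 40.4 and 37.4 CPM at pH 7.4, 18.7, 20.2, 20, 21.6 and 19.6 CPM at pH 7 and 4.04, 3.72, 3.19, 5.34 and 5.16 CPM at pH 6.6 with IL-2. At 0 h they held 25.7, 18.8, 17.3, 15.1 and 23.5 CPM, and in the 3 groups without IL-2 no library exceeded 4.43 CPM. The 3 groups with IL-2 did not overlap. With IL-2, Cdkn2a fell 1.73-fold at pH 7 (log2 fold change -0.79, SE 0.13, edgeR adjusted p = 4.39e-05) and 8.17-fold at pH 6.6 (log2 fold change -3.03, SE 0.14, edgeR adjusted p = 9.29e-19), the largest change of the 9 in either direction. Without IL-2 its log2 fold change at pH 6.6 was -0.04 ± 0.16 (edgeR adjusted p = 0.82), and the interaction was -2.99 ± 0.21 (edgeR adjusted p = 4.95e-14). IL-2 raised it 10.5-fold at pH 7.4 (log2 fold change 3.39, SE 0.14, edgeR adjusted p = 2.58e-20). At pH 6.6 the IL-2 difference was 0.40 ± 0.15 and just missed the threshold (edgeR adjusted p = 0.0563), higher in 5 of 5 replicates. It passed in 5 of 12 alternatives: RLE scaling, total count scaling (0.47, edgeR adjusted p = 0.0275), the compared groups alone, DESeq2, and the fit without replicate 1 (0.48, edgeR adjusted p = 0.044).

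Cdkn2c (chr4:109660876-109667189, minus strand), the p18 inhibitor of CDK4 and CDK6, moved in opposite directions in the arms. With IL-2 it had 60.4, 56.7, 61.2, 54.04 and 52.1 CPM at pH 7.4 and 31.2, 35.7, 39.6, 31.9 and 36.2 CPM at pH 6.6. Without IL-2 it had 15.4, 15.2, 15.8, 15.1 and 15.97 CPM at pH 7.4 and 29.9, 34.2, 40.8, 37.2 and 30.6 CPM at pH 6.6. Neither pair of groups overlapped, and the pH 6.6 groups of both arms covered nearly the same range. Cdkn2c fell 1.63-fold with IL-2 (log2 fold change -0.71, SE 0.09, edgeR adjusted p = 5.03e-08) and rose 2.22-fold without it (log2 fold change 1.15, SE 0.10, edgeR adjusted p = 7.62e-12), with an interaction of -1.86 ± 0.14 (edgeR adjusted p = 1.40e-13). IL-2 raised it 3.66-fold at pH 7.4 (log2 fold change 1.87, SE 0.10, edgeR adjusted p = 6.23e-18), and at pH 6.6 the IL-2 difference was 0.02 ± 0.10 (edgeR adjusted p = 0.916).

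Cdkn2d (chr9:21288410-21291407, minus strand), the p19INK4d inhibitor of the same kinases, varied least of the 9, by 1.63-fold between its highest and lowest group mean. It had 64.7 ± 8.88 CPM (SD, n = 5) at pH 7.4 with IL-2, 53.2 ± 7.22 CPM at pH 6.6 with IL-2, 41.3 ± 5.41 CPM at pH 7.4 without IL-2 and 51.6 ± 4.41 CPM at pH 6.6 without IL-2. With IL-2 the groups overlapped, and the fall at pH 6.6 was slight (log2 fold change -0.28, SE 0.13, edgeR adjusted p = 0.0449). That call held in 1 of 12 alternatives, the fit of the compared groups alone, and was lost on leaving out any 1 of the 5 replicates, with log2 fold changes from -0.29 to -0.23 and edgeR adjusted p from 0.0518 to 0.137. Without IL-2 Cdkn2d was higher at pH 6.6 (log2 fold change 0.32, SE 0.13, edgeR adjusted p = 0.0279), a call lost without replicate 3 (0.32, edgeR adjusted p = 0.0542), replicate 4 (0.21, edgeR adjusted p = 0.206), replicate 5 (0.32, edgeR adjusted p = 0.0626) or the filter on low counts (0.31, edgeR adjusted p = 0.0568) and with total count scaling (0.16, edgeR adjusted p = 0.263), so that it held in 7 of 12 alternatives. The interaction passed the threshold (-0.60 ± 0.18, edgeR adjusted p = 0.00409) but not with total count scaling (-0.37, edgeR adjusted p = 0.0716).

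Across the comparisons, the milder step to pH 7 moved few members. With IL-2, Cdk4 and Cdkn2a passed the threshold, 2 of 9 where 19% of all genes did, and fitting the compared groups alone added Ccnd2 (log2 fold change 0.26) and Cdkn1b (log2 fold change 0.41), both higher at pH 7. Without IL-2, 0 of 9 passed in edgeR and 0 in DESeq2, where 1.68% of all genes passed in edgeR, and 1 of 9, Cdkn2c (log2 fold change 0.28), had an unadjusted p under 0.05. At pH 6.6 without IL-2, 5 of 9 passed against 67% of all genes, with Cdkn1a, Cdkn2c, Cdk6 and Cdkn2d higher (background 31.6%) and Ccnd2 lower (background 35.4%). Ccnd3, Cdk4 and Cdkn2a, which fell with IL-2, did not pass here, and their interaction terms passed the threshold. The median over the 9 was 0.14 against -0.03 for all genes tested.

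IL-2 moved all 9 members at pH 7.4, where 80.4% of all genes passed, with 8 of 9 higher (background 39.3%), and the same 9 passed at pH 7 (background 77.2%). The median over the 9 at pH 7.4 was 1.86 against -0.04 for all genes tested. The value for Cdkn1a at pH 7 was 0.60 ± 0.14 (edgeR adjusted p = 2.76e-04) and missed the threshold without the replicate block (0.54, edgeR adjusted p = 0.0592). At pH 6.6, 4 of 9 passed against 23.7% of all genes. They were the D cyclins and the kinases, all higher with IL-2 (background 13.2%, with 10.6% of genes lower), while 0 of the 5 inhibitors passed in edgeR. Cdkn2a had an unadjusted p under 0.05 and passed in DESeq2 and 4 other alternatives, and Cdkn1b passed in 1 of 12. The interaction passed for 8 of 9 members (background 67%), positive for Cdkn1b (background 34.3%) and negative for 7 (background 32.8%). Total count scaling moved the median interaction of all genes from 0.04 to 0.27, and of the 9 it changed the call there for Cdkn2d alone.

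**Figure D3:**
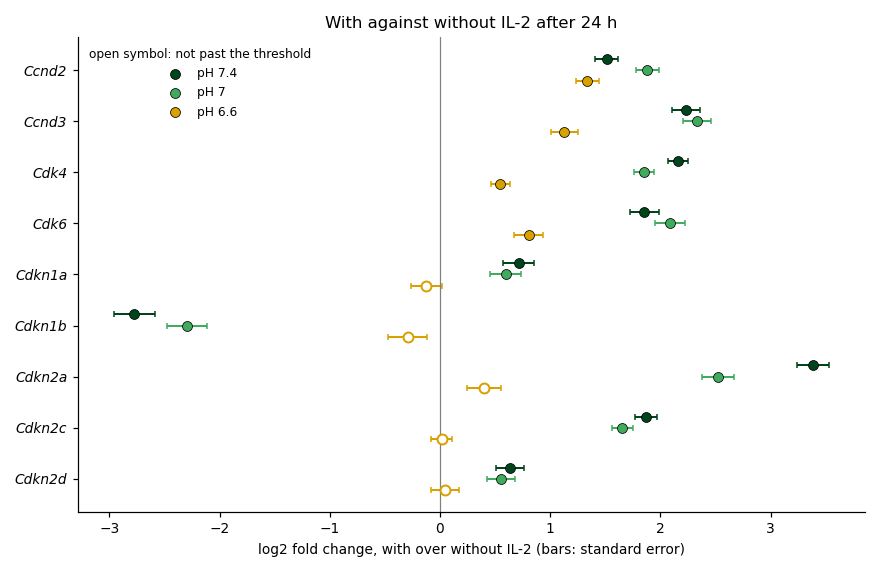
Log2 fold change of cells with over cells without IL-2 (horizontal axis) for each gene (vertical axis) at pH 7.4 (dark green), pH 7 (light green) and pH 6.6 (yellow), with bars for the standard error and open symbols where the adjusted p missed 0.05. The pH 6.6 values of Ccnd3, Cdk4 and Cdk6 are 1.13, 0.55 and 0.81 against 2.23, 2.16 and 1.86 at pH 7.4, and all 5 inhibitors have open symbols at pH 6.6.

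Cells at pH 6.6 with IL-2 were also set against cells at pH 7.4 without it, to ask whether acid left the switch where cytokine withdrawal would put it. Of the 9, 8 passed the threshold (background 64.4%), the exception being Cdkn1b. Cdk6 (1.15 ± 0.13), Ccnd3 (1.20 ± 0.12) and Ccnd2 (0.90 ± 0.10) were higher at pH 6.6 with IL-2 and did not overlap, and so were the inhibitors Cdkn1a (1.49 ± 0.14) and Cdkn2c (1.17 ± 0.10). Cdk4 was only 1.28-fold higher (log2 fold change 0.36, SE 0.09, edgeR adjusted p = 6.82e-04), with overlapping groups. Cdkn2a (log2 fold change 0.36, SE 0.15, edgeR adjusted p = 0.0411) lost its call without replicate 1 (0.31, edgeR adjusted p = 0.101), replicate 2 (0.42, edgeR adjusted p = 0.0547), replicate 3 (0.39, edgeR adjusted p = 0.0572) or replicate 5 (0.35, edgeR adjusted p = 0.0845), and kept it in 5 of 12 alternatives. Cdkn2d (log2 fold change 0.36, SE 0.13, edgeR adjusted p = 0.0142) lost its own without replicate 4 (0.26, edgeR adjusted p = 0.128) and with total count scaling (0.28, edgeR adjusted p = 0.0626).

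The 0 h libraries give the starting point of the 24 h cultures. At pH 7.4 with IL-2, 7 of 9 members passed (background 59.9%). Cdkn2c rose 2.60-fold (log2 fold change 1.38, SE 0.10, edgeR adjusted p = 1.18e-13) and Cdkn1b fell 2.21-fold (log2 fold change -1.15, SE 0.18, edgeR adjusted p = 2.50e-06). Cdk4 (0.57 ± 0.09) and Cdkn2a (0.79 ± 0.13) were higher and Ccnd2 (-0.59 ± 0.10) lower than at 0 h. Ccnd3 (log2 fold change -0.28, SE 0.12, edgeR adjusted p = 0.0379) lost its call without replicate 1 (-0.18, edgeR adjusted p = 0.172), replicate 2 (-0.32, edgeR adjusted p = 0.0549) or replicate 5 (-0.28, edgeR adjusted p = 0.0907), and without the block (-0.28, edgeR adjusted p = 0.0652). The call was also lost without the filter (-0.26, edgeR adjusted p = 0.0871) and with the compared groups alone (-0.29, edgeR adjusted p = 0.052), and held in 6 of 12 alternatives. Cdkn1a (log2 fold change -0.40, SE 0.14, edgeR adjusted p = 0.0132) lost its call without replicate 5 (-0.37, edgeR adjusted p = 0.053), without the filter (-0.38, edgeR adjusted p = 0.0531) and without the block (-0.39, edgeR adjusted p = 0.204), and kept it in 9 of 12 alternatives.

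At pH 7.4 without IL-2, 9 of 9 members passed against 0 h (background 75.2%). The falls were 4.29-fold for Ccnd2, 5.73-fold for Ccnd3, 3.02-fold for Cdk4, 3.79-fold for Cdk6 and 6.07-fold for Cdkn2a, and Cdkn1b alone rose, by 3.09-fold (log2 fold change 1.63, SE 0.18, edgeR adjusted p = 1.93e-09). At pH 6.6 with IL-2, 8 of 9 passed (background 68.5%). The D cyclins and kinases were 1.71-fold (Cdk6) to 2.49-fold (Ccnd3) below 0 h, Cdkn2a was 4.73-fold below it and Cdkn1b 2.78-fold above it (log2 fold change 1.48, SE 0.18, edgeR adjusted p = 1.93e-08). Cdkn1a (log2 fold change 0.38, SE 0.14, edgeR adjusted p = 0.0169) missed the threshold there without replicate 2 (0.29, edgeR adjusted p = 0.0968), replicate 3 (0.24, edgeR adjusted p = 0.159), replicate 4 (0.37, edgeR adjusted p = 0.0621) or the block (0.40, edgeR adjusted p = 0.181). With the compared groups alone it missed as well (0.45, edgeR adjusted p = 0.0714), so that it held in 7 of 12 alternatives. Cdkn2d (-0.26 ± 0.13, edgeR adjusted p = 0.0703) passed without replicate 4 (-0.33, edgeR adjusted p = 0.0477). At pH 6.6 without IL-2, 9 of 9 passed (background 75.1%), and 8 of 9 in DESeq2, with Cdkn1b 3.41-fold higher and Ccnd2 5.83-fold lower than at 0 h. Cdkn2d (log2 fold change -0.30, SE 0.13, edgeR adjusted p = 0.0324) kept its call in 6 of 12 alternatives and lost it without replicate 1 (-0.16, edgeR adjusted p = 0.169) or replicate 5 (-0.22, edgeR adjusted p = 0.189), without the filter, with RLE scaling, with the compared groups alone and in DESeq2. Cdkn1a (log2 fold change 0.50, SE 0.14, edgeR adjusted p = 0.00173) missed the threshold without the block (0.52, edgeR adjusted p = 0.0711).

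The summed mRNA of the Cip/Kip genes was set over that of the D cyclins, and that of the INK4 genes over Cdk4 and Cdk6, within each library, as CPM per 1000 exon bases (RPKM), where the scaling between libraries cancels. The ratio of Cdkn1a plus Cdkn1b to Ccnd2 plus Ccnd3 was 0.653, 0.560, 0.570, 0.734 and 0.806 with IL-2 at pH 7.4. At pH 6.6 with IL-2 it was 2.58, 4.16, 4.20, 2.41 and 2.68. Without IL-2 it was 4.70, 4.24, 4.68, 4.82 and 4.58 at pH 7.4 and 7.34, 9.52, 8.88, 8.31 and 8.95 at pH 6.6. D cyclin mRNA was thus the larger sum in every library at pH 7.4 with IL-2 and the smaller in every library at pH 6.6 or without IL-2, with no overlap between the pH 6.6 and pH 7.4 groups in either arm. The mean ratio at pH 7 was 0.588 with IL-2 and 4.68 without it. At 0 h the mean was 0.738.

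The ratio of the INK4 genes to Cdk4 plus Cdk6 moved less, from 0.636 ± 0.0199 at pH 7.4 to 0.929 ± 0.143 at pH 6.6 with IL-2 and from 1.02 ± 0.117 to 1.40 ± 0.101 without it (SD, n = 5). Its upper sum counts all Cdkn2a reads, which may include p19ARF. With IL-2, Cdkn2a had a mean of 29.8 of the 92.0 RPKM summed at pH 7.4 and 3.66 of 50.5 at pH 6.6. The size of the change therefore depends on Cdkn2a, and a ratio without it was not computed. Within the families, the share of Cdkn1b in the Cip/Kip sum was 23.2 ± 6.43% at pH 7.4 with IL-2, 51.05 ± 12.5% at pH 6.6 with IL-2, 76.1 ± 7.11% at pH 7.4 without IL-2 and 54.1 ± 10.2% at pH 6.6 without IL-2. The share of Cdk4 in the kinase sum was 71.2 ± 1.90% at pH 7.4 and 53.5 ± 4.36% at pH 6.6 with IL-2. Such sums depend on the gene length used. With the longest transcript in place of all exon bases, the mean Cip/Kip to D cyclin ratio was 0.558 at pH 7.4 and 2.41 at pH 6.6 with IL-2, and 3.08 and 6.31 without IL-2, in the same order.

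**Figure D4:**
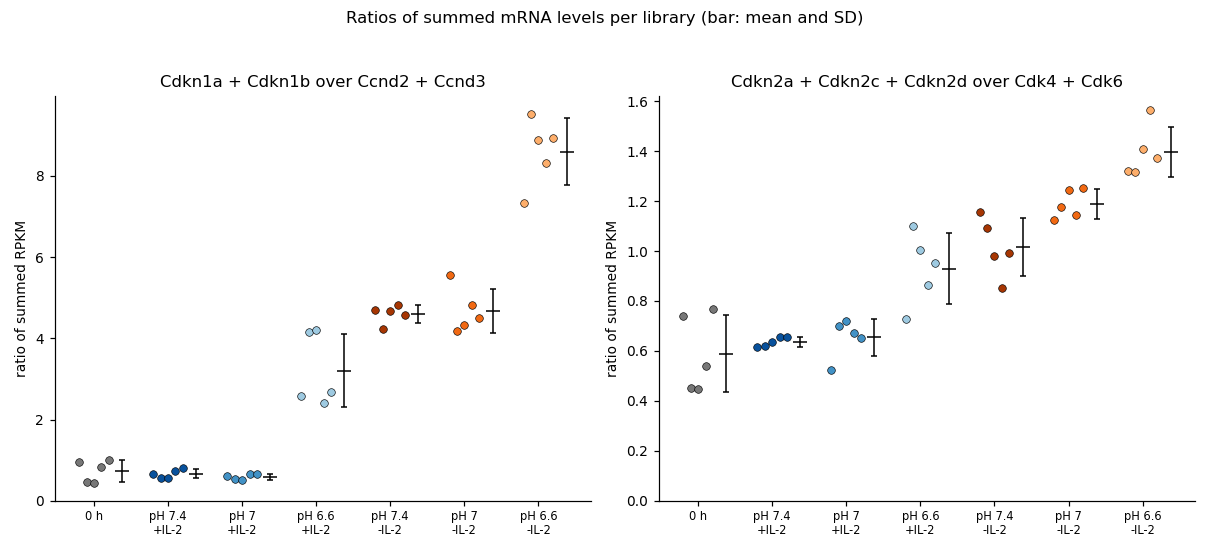
Ratio of summed RPKM in each library (vertical axis, from 0) by group (horizontal axis) for Cip/Kip inhibitors over D cyclins (left) and INK4 inhibitors over CDK4 and CDK6 (right), with a bar for the mean and SD of 5 libraries. On the left, the means are 0.664 at pH 7.4 and 3.21 at pH 6.6 with IL-2, and 4.60 and 8.60 without IL-2.

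Downstream and beside the 9, a list of 30 other G1/S genes was read from the same fit, with 29 tested. At pH 6.6 against pH 7.4 in IL-2, 28 of 29 passed (background 76.3%), 6 higher (background 35.4%) and 22 lower (background 40.9%), with a median log2 fold change of -0.92 against -0.07 for all genes tested. The other kinases and cyclins fell in 7 of 9 cases, with Ccne2, a cyclin E that activates CDK2, lowest (log2 fold change -2.32, SE 0.14, edgeR adjusted p = 2.57e-16). Ccnd1, the remaining D cyclin, was the 1 that rose (log2 fold change 0.65, SE 0.28, edgeR adjusted p = 0.0384), from a mean of only 0.902 CPM at pH 7.4 to 1.47 CPM at pH 6.6. Of the E2F and DP factors 9 of 10 fell, led by the repressor E2f8 (log2 fold change -2.52, SE 0.20, edgeR adjusted p = 1.80e-12), and Tfdp2 rose (log2 fold change 0.71, SE 0.10, edgeR adjusted p = 8.78e-08). Among the pocket proteins that hold E2F, Rbl2 (p130, the form typical of resting cells) rose (log2 fold change 0.96, SE 0.07, edgeR adjusted p = 1.15e-14), Rb1 rose (log2 fold change 0.47, SE 0.11, edgeR adjusted p = 3.85e-04) and Rbl1 (p107) fell (log2 fold change -0.92, SE 0.11, edgeR adjusted p = 2.74e-09). Cdkn2b, the neighbour of Cdkn2a and an INK4 inhibitor, also fell (log2 fold change -0.90, SE 0.12, edgeR adjusted p = 4.83e-08), and Cdkn1c was too low to be tested. Of 6 genes that control the turnover of cyclins and inhibitors, 4 fell, with Cks1b (log2 fold change -2.79, SE 0.13, edgeR adjusted p = 1.13e-18) and Skp2 (log2 fold change -2.14, SE 0.17, edgeR adjusted p = 2.43e-13), which together bring p27 to its ubiquitin ligase, furthest down.

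Without IL-2 the same list split differently. Of 29, 22 passed (background 67%), 13 higher (background 31.6%) and 9 lower (background 35.4%) at pH 6.6, with a median of 0.13 against -0.03 for all genes tested. The other kinases and cyclins rose in 6 of 9 cases, with Ccna2, the S-phase cyclin, highest (log2 fold change 2.38, SE 0.21, edgeR adjusted p = 2.78e-11), and E2f7 rose most of the E2F factors (log2 fold change 3.48, SE 0.26, edgeR adjusted p = 3.34e-13). The interaction was negative for 19 of the 29 (background 32.8%) and positive for 3 (background 34.3%). IL-2 at pH 7.4 raised 21 (background 39.3%) and lowered 6 (background 41.1%). At pH 6.6 it raised 14 (background 13.2%) and lowered 2 (background 10.6%).

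**Figure D5:**
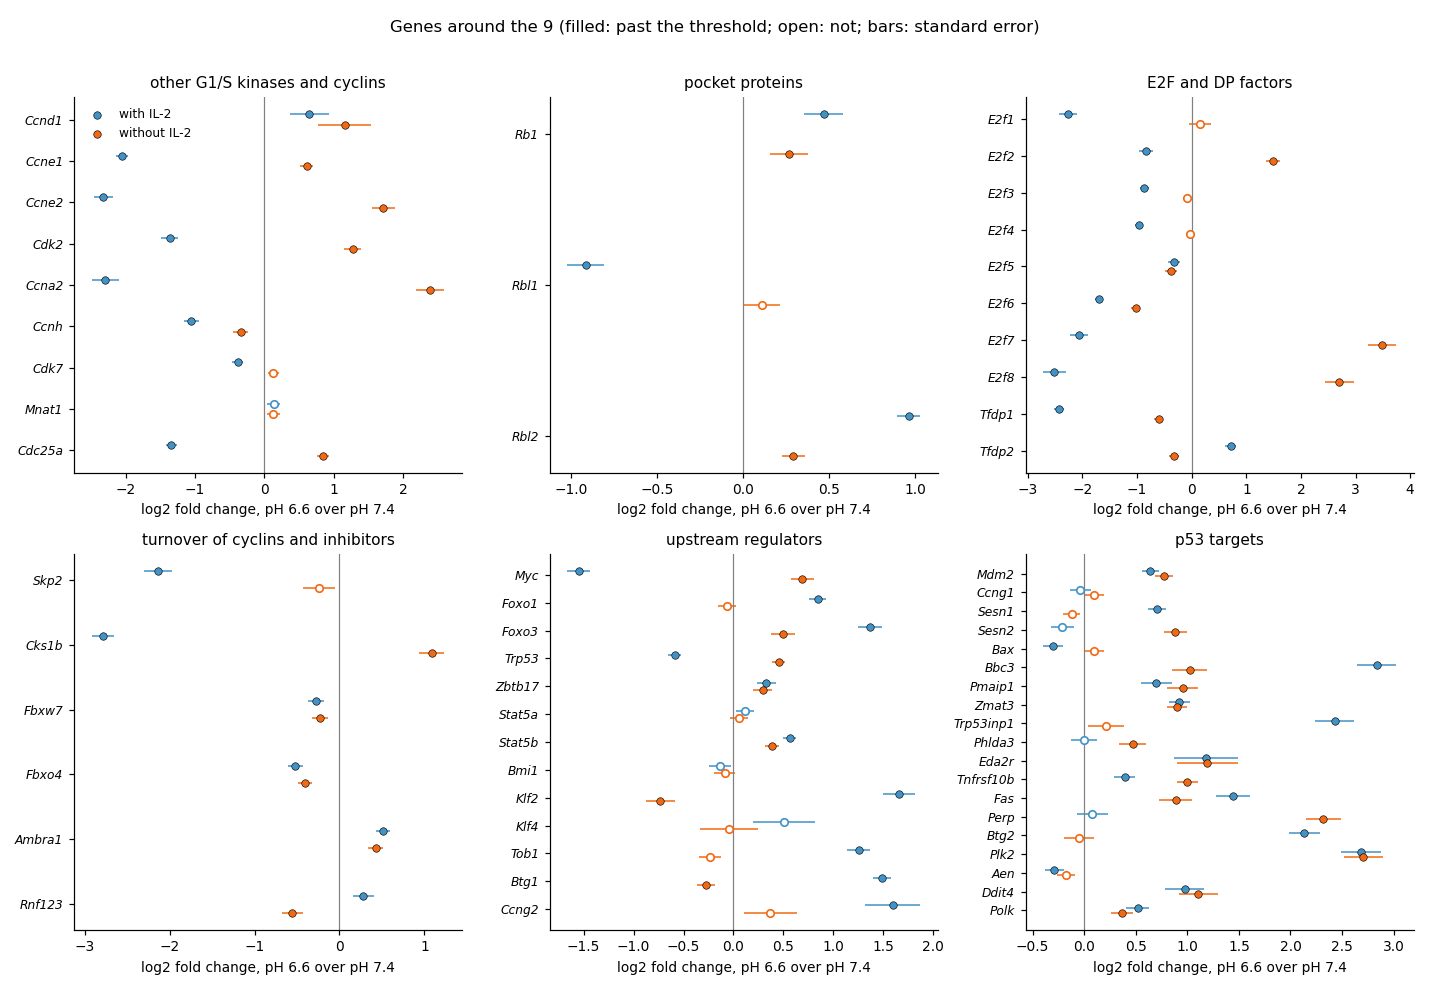
Log2 fold change of pH 6.6 over pH 7.4 (horizontal axes) for genes of 6 lists (vertical axes), with IL-2 in blue and without IL-2 in orange, bars for the standard error, filled symbols for genes past the threshold and open ones for the rest. Ccne2, Ccna2, E2f7, E2f8 and Cks1b lie left of 0 with IL-2 and right of it without, while Mdm2, Zmat3, Eda2r and Plk2 of the p53 list lie right of 0 in both arms.

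Genes known to act on the 9 were read in the same way. Myc, which drives Cdk4 and Ccnd2 and restrains Cdkn1a and Cdkn1b in other settings, had 160.1 ± 14.4 CPM (SD, n = 5) at pH 7.4 and 54.8 ± 10.4 CPM at pH 6.6 with IL-2, and 16.2 ± 3.36 and 26.1 ± 4.56 CPM without IL-2. It fell with IL-2 (log2 fold change -1.55, SE 0.11, edgeR adjusted p = 6.35e-14) and rose without it (log2 fold change 0.69, SE 0.12, edgeR adjusted p = 6.38e-06). Of 13 such regulators, 8 were higher (background 35.4%) and 2 lower (background 40.9%) at pH 6.6 with IL-2, with a median of 0.56. The 10 of 13 that passed are near the 76.3% of all genes. Klf2, a quiescence factor of T cells, rose most (log2 fold change 1.66, SE 0.16, edgeR adjusted p = 2.55e-11), and the FOXO genes Foxo1 (log2 fold change 0.84, SE 0.09, edgeR adjusted p = 3.50e-10) and Foxo3 (log2 fold change 1.37, SE 0.12, edgeR adjusted p = 3.83e-12) and the antiproliferative Btg1 (log2 fold change 1.48, SE 0.09, edgeR adjusted p = 5.35e-16) rose as well. Without IL-2, 5 were higher (background 31.6%) and 2 lower (background 35.4%, median 0.05), with Klf2 the lowest (log2 fold change -0.73, SE 0.15, edgeR adjusted p = 6.03e-05). Trp53 itself, the gene of p53, fell with IL-2 (log2 fold change -0.59, SE 0.06, edgeR adjusted p = 2.78e-10) and rose without it (log2 fold change 0.45, SE 0.06, edgeR adjusted p = 1.47e-07).

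Beside Cdkn1a, 20 other p53 target genes were listed and 19 were tested. At pH 6.6, 13 were higher and 2 lower with IL-2 (median 0.70), and 13 were higher without it (median 0.88), against medians of -0.07 and -0.03 for all genes. Of all genes, 35.4% were higher and 40.9% lower with IL-2, and 31.6% were higher without it. The 15 and 13 of 19 that passed are near the 76.3% and 67% of all genes that did. Bbc3 (PUMA), which promotes apoptosis, rose most with IL-2 (log2 fold change 2.84, SE 0.19, edgeR adjusted p = 9.02e-15) and Bax fell most (log2 fold change -0.30, SE 0.10, edgeR adjusted p = 0.00678). Without IL-2 Plk2 rose most (log2 fold change 2.71, SE 0.19, edgeR adjusted p = 7.18e-14). Mdm2, which p53 induces and which degrades p53, rose in both arms, with log2 fold changes of 0.64 ± 0.08 and 0.78 ± 0.08 (edgeR adjusted p = 3.38e-08 and 1.60e-09). Many of these genes also answer to other signals.

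Genes of dividing cells differed between the groups as well. The summed level of 20 such genes was 8336 to 9814 CPM at pH 7.4 and 2035 to 2816 CPM at pH 6.6 with IL-2, 648 to 793 and 1511 to 2566 CPM without IL-2, and 1911 to 2524 CPM at 0 h. At pH 6.6 all 20 were lower with IL-2 (median -2.09, background 40.9%), where 7 of the 9 members were lower too, Cdkn2d among them with a call that held in 1 of 12 alternatives. Without it 18 were higher and 1 lower (median 1.63, background 31.6% and 35.4%). Of the members, 4 were higher there and Ccnd2 was lower, with a median of 0.14 over the 9. Against 0 h, all 20 were higher at pH 7.4 with IL-2 (median 2.12), where 4009 of the 13819 genes tested were higher. Of the members, Cdk4, Cdkn2a and Cdkn2c were higher there, and Ccnd2, Ccnd3, Cdkn1a and Cdkn1b were lower. The calls of Ccnd3 and Cdkn1a there were lost under some alternatives, as given above. Mki67 had log2 fold changes of -1.89 ± 0.19 and 1.67 ± 0.19, Top2a of -1.48 ± 0.13 and 2.51 ± 0.14, and Ccnb1 of -2.34 ± 0.16 and 1.71 ± 0.17 (edgeR adjusted p at most 3.76e-09), while Pcna had -2.12 ± 0.10 and 0.22 ± 0.10 (edgeR adjusted p = 2.44e-18 and 0.0551). The part that a different share of dividing cells takes in the members' values was not tested.

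The genes whose log2 CPM ran closest to each member over the 35 libraries were found by Pearson's r among the 9007 genes whose mean log2 CPM reached 3. The libraries share group means, so r is given as a description only. Closest to Cdk4 were Prmt1, Snrpd3 and Mrto4 (r = 0.992 each), and closest to Cdkn2a were Stoml2, Aimp2 and Mrpl12 (r = 0.987 each). Ccnd2 ran with Ccn3, Chsy1 and P2ry14 (r from 0.968 to 0.980), Ccnd3 with Nkg7, Tgm2 and Bspry (r from 0.980 to 0.989) and Cdk6 with Spred1, Gpd2 and Pdp1 (r from 0.970 to 0.978). Among the inhibitors, Cdkn1b ran with Klf3, 2610008E11Rik and N4bp2l1 (r from 0.982 to 0.984), Cdkn2c with Tubb5, Ncapd2 and Incenp (r from 0.972 to 0.975) and Cdkn1a with Bhlhe40, Tnfrsf10b and Dusp1 (r from 0.923 to 0.950). Of these matches of Cdkn1a, the death receptor gene Tnfrsf10b is on the p53 list above, while Bhlhe40, the closest, and Dusp1 are not. The part of p53 in the level of Cdkn1a was not tested. Cdkn2d, with the smallest range, had the weakest matches, Ubtd1, Timm17b and Stub1 (r from 0.886 to 0.900).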

How the data were processed

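RNA was sequenced from 35 cultures of CTLs, which the labels call 5 biological replicates of each of 7 groups. The authors deposited raw counts of reads per gene. Their processing notes name cutadapt 1.8, STAR 2.5.2b, HTSeq 0.6.1 and the build GRCm38, and their methods name a stranded mRNA library kit. The annotation release, read length and strand setting of the counting are not given in the sources used here. Counts on genes totalled 16721319 to 34033340 per library (median 24730020), while 32.8% to 48.3% of alignments fell at several places and were not counted on genes.

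Counts of 13819 genes that passed edgeR's filter (minimum count 10) were scaled by TMM and fitted with edgeR 4.0.16 (R 4.3.3) by the robust quasi-likelihood method over all 35 libraries, with group and replicate number as terms, since the study's statistics are paired. Every p-value was adjusted by the Benjamini-Hochberg method over all genes tested, with a threshold of 0.05. The SE is the size of the log2 fold change over the square root of F. Samples with the same number deviated together in 5 of 5 pairs of pH 6.6 with pH 7.4 in IL-2 (r from 0.263 to 0.574) and in 75 of 105 pairs overall (r over 0.1), with a median r of 0.337 against -0.081 for different numbers. The labels do not say what a number stands for. No 2 libraries of a group agreed within sampling noise (lowest chi-square per degree of freedom 6.65 over 70 pairs). On simulated counts for pH 6.6 against pH 7.4 with IL-2 over 12855 genes, the fit called 45 of 67 genes changed by 0.5 on the log2 scale, 66 of 67 changed by 1, 66 of 66 changed by 2 and 13 of 12655 unchanged genes. The changed genes were few and drawn from the better covered ones. In the data 76.3% of genes passed in that comparison, so these rates need not hold there.

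CPM are TMM-scaled, RPKM use the exon length of GENCODE M21 genes (GRCm38), and promoters came from RefSeq (GRCm38.p6). Opposite-strand overlaps, 19.7% of exon bases for Cdk4 and up to 7.9% for the other members, were found from the annotation. The 9 members and the gene lists were chosen with earlier results of these data known. From each list, the largest rise and fall past the threshold were named, and Skp2, Rb1, Foxo1, Foxo3, Btg1, Mdm2, Trp53, Mki67, Top2a, Ccnb1, Pcna and the genes named in captions were added after their values were seen. Alternatives were RLE and total count scaling, DESeq2 1.42.0, no filter or a minimum of 10 counts for each library, fitting the compared groups alone, no replicate block, leaving out each replicate number, and another gene length or TPM for ratios.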

Additional observations from a re-analysis of the deposited data

Results flagged for a closer look

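For 8 of the 9 members the effect of pH 6.6 differed between cells with and without IL-2 by the interaction term of the edgeR fit. On the log2 scale the difference was -1.10 for Ccnd3, -1.61 for Cdk4, -1.05 for Cdk6, -0.84 for Cdkn1a, 2.48 for Cdkn1b, -2.99 for Cdkn2a, -1.86 for Cdkn2c and -0.60 for Cdkn2d. The same test passed for 67% of all genes.

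In 2 of 63 groups of 5 libraries, 1 for each of 2 conditions of Cdkn2d, a single library lay far from the others. At pH 7 with IL-2 the lowest library had 44.1 CPM and the next 68.8 CPM, a gap of 0.759 of the group's range. At pH 7 without IL-2 the highest had 53.01 CPM and the next 44.7 CPM, a gap of 0.823 of the range. Both exceed 0.71, the limit for 5 samples, which chance passes in about 1 in 20 groups.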

How the results depend on the processing

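Over 117 results and 12 settings each, 1337 of 1404 values kept their side of the threshold, 52 lost a call and 15 gained one. Of values called in the main fit or the alternative, 0 changed direction. Uncalled values could change sign, such as Cdkn2a at pH 6.6 without IL-2 (log2 fold change -0.04, and -0.20 to 0.09 over the alternatives). Fitting the compared groups alone gave 4 in place of 2 members past the threshold for pH 7 with IL-2, and 1 in place of 0 for pH 7 without IL-2, and the cause was not tested. Without the replicate block 8 calls were lost and none was gained, for example Cdkn1a in the interaction (-0.81, edgeR adjusted p = 0.0551). The others were Cdkn2d at pH 6.6 with IL-2 (-0.28, edgeR adjusted p = 0.0667), Cdkn2a at pH 6.6 with IL-2 against pH 7.4 without it (0.36, edgeR adjusted p = 0.0721) and the 5 given beside their values for Cdkn1a and Ccnd3. Over all genes, the count past the threshold for pH 7 with IL-2 was 2623 and ranged from 1283 without replicate 3 to 4397 with the compared groups alone (1660 without the replicate block). For pH 7 without IL-2 it was 232, and it was 35 without replicate 2, 56 without the block and 926 with the compared groups alone. The effect of IL-2 at pH 6.6 gave 3278, against 2119 without replicate 4 and 5494 with the compared groups alone. Total count scaling moved the median of all genes from -0.03 to -0.19 for pH 6.6 without IL-2 and from -0.04 to -0.20 for IL-2 at pH 7.4. The longest transcript as gene length moved 58 of 63 ratios, shares and sums by more than 1 SD, and TPM (scaled to the sum over all genes) moved 28 of 63. Depth limits Cdkn2a most, which had as few as 52 reads.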
